A study of Mus musculus with 148 samples.

Results

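DNA modification of enterocytes, the absorptive cells of the intestinal villi, was compared between neighbouring parts of the adult small intestine where the jejunum passes into the ileum. Of the 148 samples of the series, 23 were chosen by their labels alone: adult mice at postnatal day 60 (P60), segment 5 (medial jejunum, n = 8), segment 6 (distal jejunum, n = 7) and segment 7 (proximal ileum, n = 8). The small intestine had been cut into 9 parts of equal length, numbered from the stomach, and the labels place segment 6 in the jejunum although the accompanying paper counts it with the ileum. All 23 samples came from C57BL/6NCrl mice, as the paper names the strain (the labels spell it C57BL/6MCrl), with no treatment named in the labels, and all hold enterocytes isolated from the villi. The main comparison was segment 7 against segment 5, with segment 6 as the step between them. The labels do not say which segments came from the same mouse, and the paper counts fewer mice per segment in its own P60 analysis than there are samples here. Whether each sample is a separate mouse is therefore not known, and the p values measure the spread between these samples, treated as independent. The files hold no expression values, so the enterocyte label was not checked against marker genes.

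Lactase, the product of *Lct*, splits the milk sugar lactose at the enterocyte surface, and its gene is most active in the proximal and middle small intestine. The neighbouring gene *Mcm6* encodes a subunit of the helicase that unwinds DNA for replication, and introns of this gene carry regulatory sequence that acts on *Lct* over a distance. Methylation of CpGs, the main cytosine modification of mammalian DNA, is often low at active promoters and enhancers and high in gene bodies. The other targets were mostly imprinted regions, where the copy inherited from one parent carries methylation and the other does not, so that their levels usually lie in the middle of the scale.

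Bisulfite-treated DNA was captured with padlock probes before sequencing. Such a probe anneals by an arm at each end, the stretch between the arms is copied from the sample, and ligation closes the circle. Percent modification is the number of reads that called a cytosine modified divided by all reads there, per cytosine and strand, where more than 30 reads were available. Bisulfite does not tell methylation from hydroxymethylation. In such bulk samples, a change in every cell and a change in the mix of cells cannot be told apart. Tests were possible at 1526 CpGs: 655 of the *Lct*–*Mcm6* locus (chr1:128275665-128364310 in GRCm38) and 871 of the other targets. The median tested CpG had between 969 and 3303 reads per sample. A few samples stood apart by depth, segment 5 replicate 5 (3303 reads), segment 6 replicate 6 (3077) and segment 7 replicate 5 (2640), and counts of CpGs are also given without them. Depth did not differ detectably between segments 5 and 7 (difference of means -19.4 reads, exact permutation test, two-sided, p = 0.942). Modification at CpHs, cytosines not followed by guanine, had means of 0.391% ± 0.027 and 0.374% ± 0.018 for segments 5 and 7 (SD, n = 8 each, exact permutation p = 0.152).

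The sequences below, read from the GRCm38 reference, hold the locus CpGs on which the results turn. Each runs 5′ to 3′ on the minus strand, which both genes use as coding strand, and capitals mark CpGs that differed between segments 5 and 7 on 1 or both strands (Benjamini-Hochberg adjusted p under 0.05, quasi-binomial F test). Every CpG inside these windows is in capitals. None of the windows overlaps an annotated untranslated region.
*Mcm6* exon 13 into intron 13, chr1:128338074-128338215: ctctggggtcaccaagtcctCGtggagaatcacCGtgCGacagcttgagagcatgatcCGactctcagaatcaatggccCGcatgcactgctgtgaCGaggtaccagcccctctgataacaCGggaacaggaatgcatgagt
*Mcm6* intron 13, chr1:128337872-128337912: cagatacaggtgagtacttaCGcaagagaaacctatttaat
*Mcm6* intron 13, chr1:128337751-128337792: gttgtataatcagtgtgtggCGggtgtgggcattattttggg
*Mcm6* intron 3, chr1:128353157-128353323: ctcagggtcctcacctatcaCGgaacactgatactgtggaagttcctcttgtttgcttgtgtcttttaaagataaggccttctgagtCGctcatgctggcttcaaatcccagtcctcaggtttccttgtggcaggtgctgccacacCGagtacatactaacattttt
*Lct* exon 1, chr1:128328039-128328080: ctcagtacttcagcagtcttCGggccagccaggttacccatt
*Lct* intron 2, chr1:128314836-128314951: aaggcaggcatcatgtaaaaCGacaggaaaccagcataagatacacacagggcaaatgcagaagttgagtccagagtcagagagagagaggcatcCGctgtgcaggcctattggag
*Lct* intron 2, chr1:128314499-128314540: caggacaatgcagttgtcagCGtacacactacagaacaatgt
*Lct* exon 9 into intron 9, chr1:128298419-128298502: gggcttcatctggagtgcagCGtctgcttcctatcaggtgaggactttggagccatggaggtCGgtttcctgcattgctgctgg

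From segment 5 to segment 7, called modification was higher at 12 CpGs of the locus and lower at 0 (quasi-binomial F test on read counts, Bonferroni adjusted p under 0.01 over all 1526 CpGs). Copied stretches held 11 of them, and 1 lay only under a probe arm, outside the stretch copied from the sample. The 12 are 1.83% of the 655 locus CpGs tested and 0.786% of all CpGs tested. Of the 12, 9 lay in *Mcm6* exon 13, 1 in *Mcm6* intron 13, 1 in *Lct* exon 1 and 1 in *Lct* exon 9. The median rise was 24.9 percentage points, against a median difference of 0.10 points over all locus CpGs tested. The 12 were chosen by this difference, which alone favours a large median. At the wider threshold, a Benjamini-Hochberg adjusted p under 0.05, 36 locus CpGs passed (5.5%), of which 36 were higher in segment 7. The unadjusted p was under 0.05 at 94 locus CpGs, 78 of them higher and 16 lower in segment 7. At 8 of the 12 CpGs every segment 7 sample lay above every segment 5 sample, a separation seen at 1.83% of locus CpGs and 1.18% of all CpGs. The choice of the 12 favours such a separation too. The count of 12 fell to 7 with the sequencing lane as a covariate, to 3 when the correction also counted CpHs and to 2 without the 3 deepest samples. The 2 were 128338157 and 128338195 in exon 13, and the other 10 had Bonferroni adjusted p values from 0.024 to 0.179 in the quasi-binomial test. The CpG 128338195, which is also among the 7 and the 3, lies under a probe arm and had low values, given below. In that smaller set the difference was 33.8 points at 128338157 and 22.8 in place of 23.9 points at 128338178, the CpG whose difference moved most of the 12. CpHs gave no such result: 0 of 20880 tested passed either threshold in the same test, with 962 (4.61%) at an unadjusted p under 0.05.

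**Figure D1:**
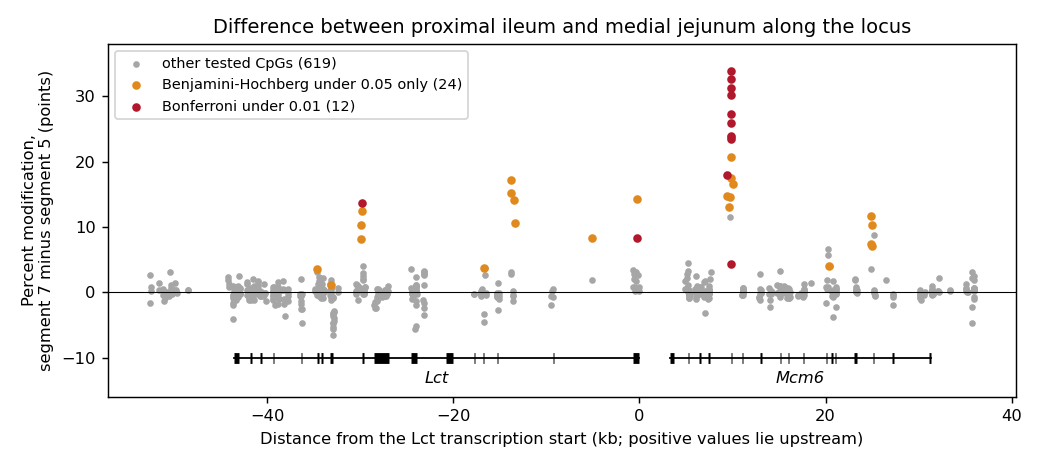
Difference in percent modification between segment 7 and segment 5 at each of the 655 tested locus CpGs (y axis, percentage points) by distance from the *Lct* transcription start (x axis, kb), with exons of *Lct* and *Mcm6* drawn as black boxes below. Most points lie near 0, and the tallest column of points, up to 33.9, stands near 10 kb upstream, in *Mcm6* exon 13.

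*Mcm6* exon 13 (chr1:128338116-128338277, protein coding) held the largest differences. Its 12 tested CpG cytosines, at 6 positions read on both strands and 1 of them under a probe arm, were all higher in segment 7, and 12 of 12 passed the wider threshold. In segment 5 the mean over these CpGs was 34.4, 45.9, 46.1, 40.7, 40.1, 34.8, 52.2 and 39.6% in replicates 1 to 8. The corresponding values in segment 6 were 40.2, 55.3, 61.2, 53.3, 56.5, 49.7 and 62.5%, and those in segment 7 were 51.8, 70.4, 71.3, 59.6, 69.7, 69.5, 77.7 and 60.5%. Segments 5 and 7 met only at their edges: the highest segment 5 sample, at 52.2%, exceeded the lowest segment 7 sample, at 51.8%. The means were 41.7% ± 6.1 (SD, n = 8), 54.1% ± 7.5 (SD, n = 7) and 66.3% ± 8.3 (SD, n = 8). The difference between segments 7 and 5 was 24.6 points (95% interval 16.8 to 32.4, from the exact permutation test, p = 0.00031, Benjamini-Hochberg adjusted p = 0.0035 over 79 features). Within lanes 5, 6 and 7 it was 23.7, 24.6 and 24.4 points.

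Among single CpGs of exon 13, the largest rise was at 128338157 on the minus strand. Segment 5 samples ranged there from 26.5 to 43.02% (median 32.6%), segment 6 samples from 33.1 to 56.9% (median 50.5%) and segment 7 samples from 47.99 to 81.7% (median 70.7%). Every segment 7 sample was above every segment 5 sample. The mean rose from 33.1% ± 5.3 to 66.9% ± 10.8 (SD, n = 8 each), a difference of 33.9 points ± 4.2 (SE), with a Bonferroni adjusted p of 0.000112 and a median of 3827 reads per sample. The next differences were 32.6 points at 128338194 on the plus strand, 31.3 at 128338182 on the minus strand and 30.2 at 128338156 on the plus strand. At 128338136, 128338119 and 128338178 on the minus strand, and at 128338181 on the plus strand, the differences were 27.3, 23.5, 23.9 and 25.9 points, and all of these passed the Bonferroni threshold. The other 3 CpGs of the exon rose by 17.6 to 23.8 points and passed only the wider threshold.

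The 12 exon 13 cytosines were read by 1 probe on each strand, so they share molecules and are not 12 independent observations. Over the 6 plus-strand CpGs the mean went from 48.7 to 73.8%, with a median of 910 reads. Over 5 minus-strand CpGs in the copied stretch it went from 41.1 to 69.1%, with a median of 3826 reads. The sixth, at 128338195, lies under a probe arm, outside the stretch copied from the sample, and the exon 13 means above include it. Its means were only 3.15% ± 0.75 and 7.42% ± 0.87 for segments 5 and 7 (SD, n = 8 each), against 38.7 and 71.3% for the same CpG on the plus strand. Over the 46 tested CpGs that lie only under an arm, the segment 5 mean was 3.14%, compared with 64.6% for the 1443 CpGs in copied stretches. The mean over arm CpGs covered in every sample was itself 0.381 points higher in segment 7 than in segment 5 (2.97 and 3.35%, exact permutation p = 0.000622, n = 8 each). That mean includes 128338195, and it was not computed without this CpG. When CpGs under an arm were left out, a choice made after the data were seen, 11 of the 12 remained past the threshold.

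*Mcm6* intron 13 (chr1:128335866-128338115) followed its exon at a smaller scale. All 7 tested CpGs were higher in segment 7, by 2.0 to 18.01 points, and 4 passed the wider threshold. Feature means ranged from 48.3 to 60.6% in segment 5 (median 53%), from 53.97 to 65.8% in segment 6 (median 61.02%) and from 57.7 to 73.0% in segment 7 (median 65.1%). The segment 5 and 7 ranges overlapped. The difference was 11.01 points (95% interval 6.2 to 15.8, exact permutation p = 0.00078, adjusted p = 0.0068). At 128337771 on the plus strand the mean rose from 58.5% ± 5.1 through 69.9% ± 6.1 to 76.5% ± 6.3 (SD, n = 8, 7 and 8), with a Bonferroni adjusted p of 0.0084 in the quasi-binomial test (0.107 without the 3 deepest samples). A CpG of intron 12, 128338385, named after its values were seen, went from 54.7 to 71.3%. With it, the exon 13 and intron 13 CpGs that passed the wider threshold numbered 17 within 615 bp. They lie about 10 kb upstream of the *Lct* start.

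Farther upstream, *Mcm6* intron 3 also differed. Its 5 tested CpGs were higher in segment 7 by 3.6 to 11.7 points, and 4 passed the wider threshold. Among these, 128353177 and 128353303 on the minus strand, which rose by 11.7 and 10.3 points, fell on no placed probe of that strand. The mean of the intron was not tested with more than 100 reads. Segment 5 samples ranged from 51 to 55.4% (median 53.1%), segment 6 samples from 53.4 to 61.2% (median 57.3%) and segment 7 samples from 55.7 to 67.8% (median 60.6%), so segments 5 and 7 did not overlap. The means were 53.3% ± 1.5, 56.95% ± 3.1 and 61.3% ± 3.9 (SD, n = 8, 7 and 8), and the difference of 8.0 points had an exact permutation p of 0.000155, the smallest that 8 against 8 samples can give (adjusted p = 0.0020). In *Mcm6* intron 6 the mean of 5 CpGs went from 76.3% ± 2.1 to 80.5% ± 1.0 (SD, n = 8 each), again without overlap and with the same p. *Mcm6* upstream sequence moved by only 0.45 points over 39 CpGs (adjusted p = 0.026 in the exact permutation test, 0.055 without the 3 deepest samples), and 0 of its 54 tested CpGs passed either threshold alone.

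*Mcm6* intron 1 did not show such a change. Its 9 CpGs stayed low, with sample means from 8.5 to 12.8% in segment 5 (median 9.3%), from 7.7 to 11.1% in segment 6 (median 8.9%) and from 8.2 to 11.4% in segment 7 (median 9.3%). The groups overlapped throughout. The difference was -0.39 points, with a 95% interval from -1.72 to 0.85 (exact permutation p = 0.55), an interval that does not reach differences as large as those of exon 13, intron 13 or intron 3.

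**Figure D2:**
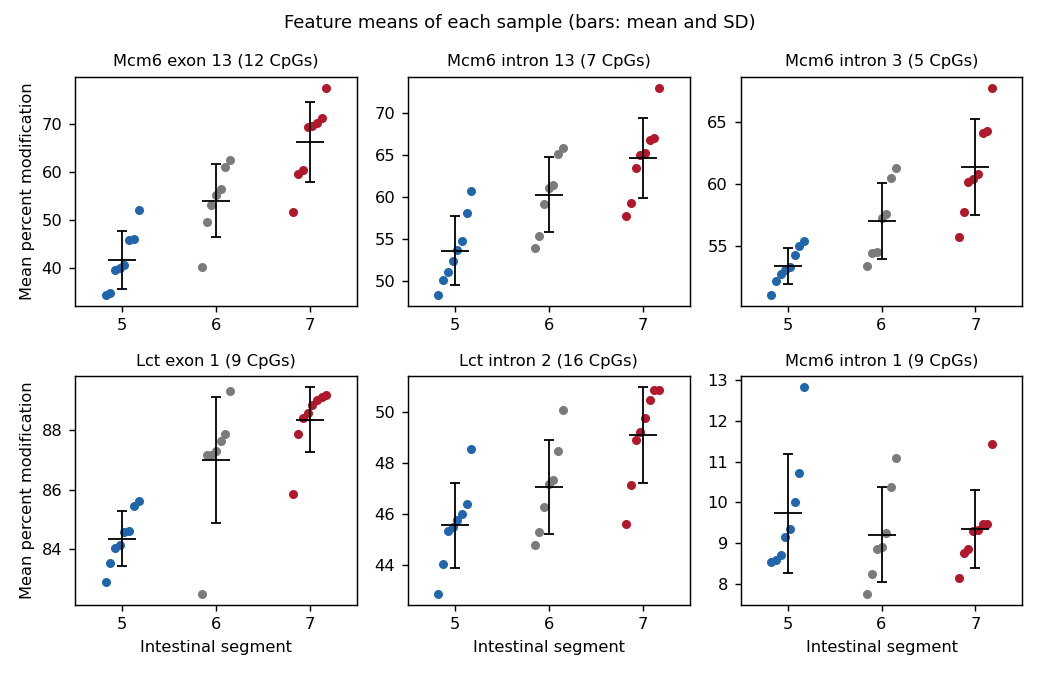
Mean percent modification (y axis, a separate scale in each panel) of 6 features in each sample of segments 5, 6 and 7 (x axis), with the mean and SD of the samples as black bars. Segment 7 lies above segment 5 in 5 panels, with overlap for *Mcm6* exon 13, *Mcm6* intron 13 and *Lct* intron 2, while *Mcm6* intron 1 shows no ordered change.

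Within *Lct*, the first exon was more modified in the ileum. It encodes the start of the protein, and its 9 tested CpGs were all higher in segment 7. In segment 5 the exon 1 means were 83.5, 85.6, 84.6, 84.1, 84.6, 82.9, 85.5 and 84.05% in replicates 1 to 8. In segment 6 they were 82.5, 87.3, 89.3, 87.2, 87.2, 87.6 and 87.8%, and in segment 7 they were 85.8, 88.6, 89.1, 87.8, 88.8, 89.2, 89.0 and 88.4%. Segments 5 and 7 did not overlap, whereas replicate 1 of segment 6 lay below all segment 5 samples. The difference was 4.0 points (95% interval 2.9 to 5.0, exact permutation p = 0.000155, adjusted p = 0.0020). It was unevenly shared among the CpGs. The position 128328059 rose by 14.3 points on the plus strand, from 73.2 to 87.4%, and its partner 128328060 on the minus strand rose by 8.3 points, from 79.7% ± 2.0 to 88.0% ± 1.8 (SD, n = 8 each, quasi-binomial test, Bonferroni adjusted p = 0.0026, 0.111 without the 3 deepest samples). Each of the other 7 CpGs differed by 0.25 to 3.2 points and did not pass the wider threshold. The CpG with the large difference lies 0.26 kb inside the gene.

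*Lct* intron 2 was a mixture. Of its 16 tested CpGs, 8 were higher and 8 lower in segment 7, and the median difference was 0.01 points. The 4 that passed the wider threshold, named here after their values were seen, were all higher: 128314519 on the plus strand by 17.2 points and its partner 128314520 by 15.2, and 128314856 and 128314931 on the minus strand by 14.2 and 10.7. At the last of these, the mean went from 11.5 to 22.2%. The mean over the intron ranged from 42.8 to 48.5% in segment 5 (median 45.6%), from 44.8 to 50.1% in segment 6 (median 47.2%) and from 45.6 to 50.9% in segment 7 (median 49.5%), with overlap. The difference of 3.6 points (95% interval 1.6 to 5.5) had an adjusted p of 0.016 in the exact permutation test, and of 0.106 when reads were pooled over CpGs in place of averaging percentages.

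At the boundary of *Lct* exon 9 and intron 9, 29.8 kb inside the gene, 4 CpG cytosines at 2 CpG positions within 44 bp passed the wider threshold. The exonic position rose by 13.7 points on the minus strand (128298482, from 56.3% ± 3.2 to 69.99% ± 2.6, SD, n = 8 each, quasi-binomial test, Bonferroni adjusted p = 0.0015, 0.038 without the 3 deepest samples) and by 12.5 on the plus strand. Samples of segment 5 ranged at 128298482 from 52.6 to 63.2% and those of segment 7 from 66.5 to 74.2%, without overlap. The intronic position rose by 10.2 and 8.2 points. Over all 16 CpGs of exon 9 the difference was 2.5 points (exact permutation p = 0.000155), and over all 28 CpGs of intron 9 it was -0.70 points (p = 0.076), since 14 of those CpGs were higher and 14 lower. *Lct* exon 12 rose by 1.6 points over 5 CpGs (adjusted p = 0.0068). Single CpGs in *Lct* exons 4 and 10 and intron 1, also named after their values were seen, rose by 3.7, 1.1 and 8.3 points at the wider threshold. In exon 4, 2 of 3 CpGs were lower in segment 7, and in exon 10, 6 of 16, while all 4 of intron 1 were higher. The means over exons 4 and 10 differed by -1.37 and -0.18 points (exact permutation p = 0.44 and 0.63).

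Most locus CpGs that passed had a middle level in segment 5. Of 96 locus CpGs between 20 and 80% modified in segment 5, 30 passed the wider threshold (31.2%). Of the CpGs above 80%, 3 passed (0.61%), and of 66 under 20%, 3 passed (4.5%). At the other targets, where 680 of 871 tested CpGs lay between 20 and 80%, 20 of those passed (2.9%). The shares that passed were close in exons and introns, 19 of 292 exonic CpGs (6.5%) and 17 intronic CpGs (6.6%), with 12 of the exonic ones in *Mcm6* exon 13. The opposite strand was tested at 16 of the positions that passed, and in 15 of these both strands were higher in segment 7, with 12 passing on both strands. The 36 cytosines stand for 24 positions and 20 probes.

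At most CpGs that passed, segment 6 had a mean between its neighbours. At 35 of the 36 locus CpGs that passed the wider threshold, the segment 6 mean fell between those of segments 5 and 7, at a median of 52.1% of the way. At the other targets this held for 21 of the 23 CpGs that passed. All these CpGs were chosen for their distance between segments 5 and 7. That choice alone favours a segment 6 mean near the middle, so these shares do not test whether segment 6 is intermediate. Over the 12 Bonferroni CpGs the position ranged from 42.4 to 63.4% of the way, with a median of 50.6%. No CpG departed from the middle of its neighbours after adjustment (quasi-binomial F test, lowest Benjamini-Hochberg p = 0.776 over 1526 CpGs), and 40 locus CpGs did so at an unadjusted p under 0.05. Each single step was too small to pass for nearly every CpG. Between segments 5 and 6, 0 locus CpGs passed Bonferroni correction and 1 passed at the wider threshold (0.153%), *Lct* exon 10 128295160, with 65 at an unadjusted p under 0.05. Between segments 6 and 7, 0 passed either threshold in the quasi-binomial fit, with 72 at an unadjusted p under 0.05. In the exact permutation test the exon 13 mean rose by 12.4 points from segment 5 to 6 (p = 0.0059) and by 12.2 points from segment 6 to 7 (p = 0.012), neither of which passed after adjustment over 79 features (0.20 and 0.23).

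**Figure D3:**
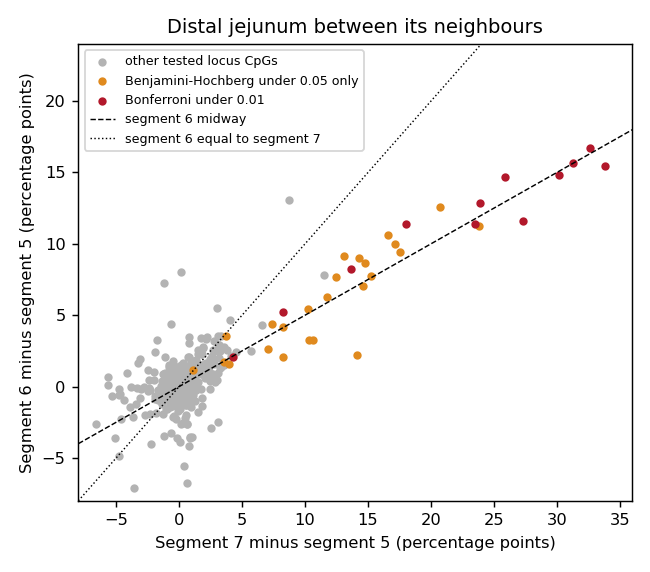
Difference of segment 6 from segment 5 (y axis) against the difference of segment 7 from segment 5 (x axis), in percentage points, for the 655 tested locus CpGs. CpGs that passed a threshold between segments 5 and 7 scatter around the dashed line that marks the midpoint, at a median of 52.1% of the way. They were chosen by the difference on the x axis, which alone favours a place near that line.

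Among 79 features with at least 3 CpGs covered in every sample, 13 differed between segments 5 and 7 in the exact permutation test (16.5%, Benjamini-Hochberg adjusted p under 0.05). Of these, 9 were among the 59 locus features (15.25%), 9 of them higher in segment 7, and 4 were among the 20 other targets (20%), 3 higher and 1 lower. The locus share was thus not above that of all features. Between segments 5 and 6, and between 6 and 7, 0 features passed, with 12 and 10 at an unadjusted p under 0.05. Over all 618 locus CpGs covered in every sample the mean rose from 79.3% ± 0.5 to 80.2% ± 0.5 (SD, n = 8 each, exact permutation p = 0.0016). Over 786 CpGs of the other targets it went from 51.3% ± 0.6 to 51.8% ± 0.4 (SD, n = 8 each, exact permutation p = 0.087).

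At the other targets, 0 of 871 CpGs passed Bonferroni correction and 23 passed the wider threshold (2.64%), 13 higher and 10 lower in segment 7, with 113 at an unadjusted p under 0.05. Over all 1526 CpGs tested, 3.21% passed as higher and 0.655% as lower. These CpGs are named after their values were seen. On chromosome 10, within the imprinted zinc finger gene *Plagl1* but outside its exons, 5 neighbouring plus-strand CpGs between 13089855 and 13089953 rose by 6.7 to 9.9 points. On chromosome 15, 9 CpGs at *Peg13*, an imprinted noncoding RNA gene within *Trappc9*, fell by 2.45 to 13.4 points, 2 of them in an exon of *Peg13* and 7 outside that gene. Among them, 72804022, 72804074 and 72804112 on the plus strand fell on no placed probe of that strand. The other 9 CpGs that passed were 4 within *Zdbf2* outside its exons, which rose by 6.4 to 10.8 points, 2 at *Snrpn*, 1 at *Peg3*, 1 at *Slc38a4* and 1 between *Dlk1* and *Meg3*. The last, 109529533 on the minus strand, was lower in segment 7 (2.33 and 1.79% in segments 5 and 7) and lies only under a probe arm. The windows are shown because they hold the largest groups of such CpGs, with capitals as above. The window of the *Peg13* target lies in *Trappc9*, outside the *Peg13* gene itself.
*Plagl1*, plus strand, chr10:13089835-13089973: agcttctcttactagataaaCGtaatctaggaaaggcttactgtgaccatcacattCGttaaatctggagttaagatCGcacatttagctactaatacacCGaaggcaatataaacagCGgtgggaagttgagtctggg
*Peg13*, minus strand, chr15:72804002-72804132: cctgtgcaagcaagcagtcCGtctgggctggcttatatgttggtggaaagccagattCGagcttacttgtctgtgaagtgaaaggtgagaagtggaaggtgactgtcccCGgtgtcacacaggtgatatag

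The *Plagl1* target as a whole, 13 CpGs, ranged from 43.96 to 50.2% in segment 5 (median 47.6%), from 44.3 to 53.6% in segment 6 (median 49.6%) and from 50.9 to 53.7% in segment 7 (median 52.4%). Segments 5 and 7 did not overlap, and the difference was 4.9 points (95% interval 3.3 to 6.5, exact permutation p = 0.000155, adjusted p = 0.0020). The *Peg13* target, 76 CpGs, was lower in segment 7: 64.8 to 65.95% in segment 5 (median 65.2%), 63.6 to 65.1% in segment 6 (median 64.7%) and 63.7 to 64.6% in segment 7 (median 64.2%). Here too the groups did not overlap, although the difference was only -1.12 points (95% interval -1.56 to -0.67, exact permutation p = 0.000155). The target at *Zdbf2*, an imprinted gene of chromosome 1, rose by 0.99 points over 181 CpGs (adjusted p = 0.021, 0.0997 with more than 100 reads). The region between *Dlk1* and *Meg3*, an imprinted pair on chromosome 12, rose by 1.35 points over 74 CpGs (adjusted p = 0.015, 0.12 with pooled reads).

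The remaining 16 targets, which include *Grb10*, *Zrsr1*, *Peg3*, *Snrpn*, *Mest*, *Peg10*, *Gnas*, *Igf2r*–*Airn*, *H19* and *Kcnq1ot1*, did not pass. Their differences ranged from -1.62 to 2.02 points. For *Mest* the interval of the difference ran from -0.40 to 2.19 points and for *H19*, the maternally expressed RNA gene beside *Igf2*, from -1.96 to 0.94 points. The interval was widest for *Gnas*, from -6.33 to 3.33 points over 7 CpGs, so that a change of several points was not detectable there.

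**Figure D4:**
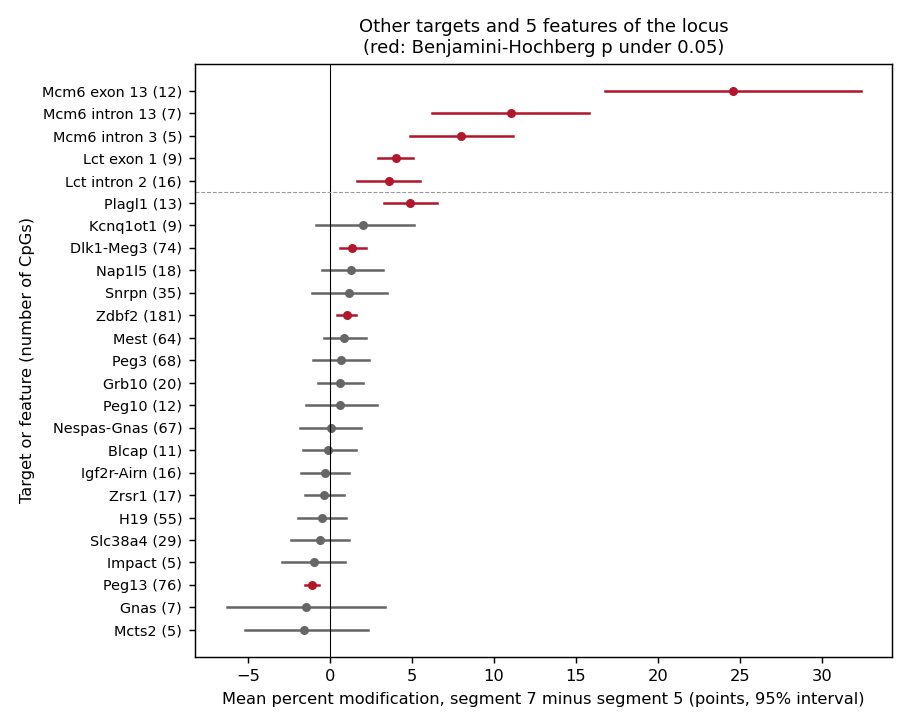
Difference in mean percent modification between segments 7 and 5 (x axis, percentage points) with its 95% interval from the exact permutation test for 20 other targets and, above the dashed line, 5 features of the locus (y axis, number of CpGs in parentheses). Red marks an adjusted p under 0.05. The interval of *Mcm6* exon 13, from 16.8 to 32.4, lies to the right of the intervals of all targets.

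The step from segment 5 to 7 was set against the steps before and after it in a limma fit to all 71 P60 samples. The difference between steps was itself tested. At 4 locus CpGs (0.613% of 653) the rise from segment 5 to 7 was larger than that from segment 3 to 5 (Benjamini-Hochberg adjusted p under 0.05), and all 4 lay in *Mcm6* exon 13 on the minus strand, 128338195 among them under a probe arm. Over all 1515 CpGs in this fit 17 passed (1.12%), the other 13 outside the locus, so the locus share was not above that of all CpGs. At 128338157 modification was 6.9 points higher in segment 5 than in segment 3, which did not pass, then rose by 33.9 points from segment 5 to 7 (adjusted p of the difference between the steps 0.0023) and by 22.5 points from segment 7 to 9. At 128338136, 128338182 and 128338195 the adjusted p values of the first difference were 0.043, 0.032 and 0.0087. On a log2 odds scale 1 CpG remained past the threshold. Against the step from segment 7 to 9, the step from 5 to 7 differed at 0 locus CpGs in limma after adjustment and at 38 at an unadjusted p under 0.05.

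From segment 3 to segment 9 the successive means of exon 13 were 33.6, 37.9, 41.7, 54.1, 66.3, 76.5 and 81.95%. *Lct* exon 1 went from 81.5% in segment 3 through 84.4% in segment 5 to 88.4% in segment 7 and 89.3% in segment 9. *Plagl1* went from 43.6% through 47.5 and 52.3% to 53.1% in the same segments. At the *Dlk1*–*Meg3* target, 13 CpGs had a different step before segment 5: they fell by 2.5 to 14.6 points from segment 3 to 5, and their changes from segment 5 to 7 lay between -0.22 and 7.07 points.

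**Figure D5:**
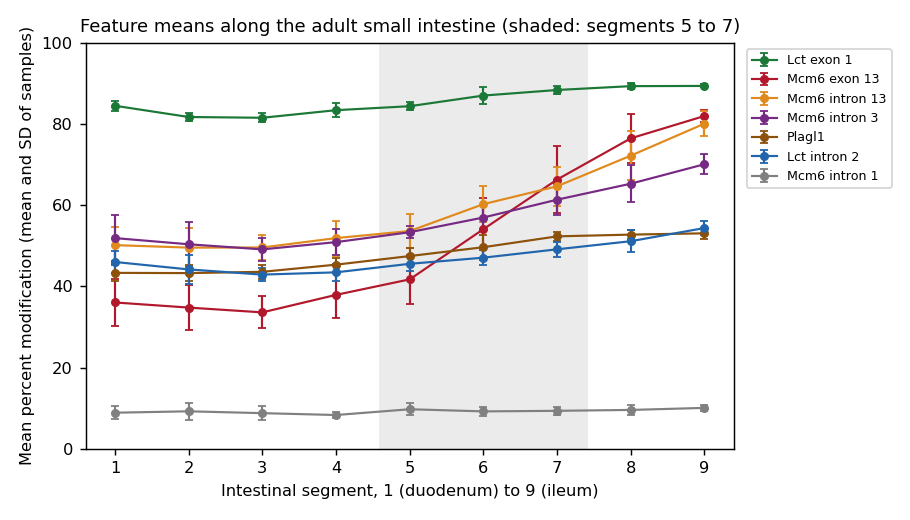
Mean percent modification (y axis) of 6 locus features and of *Plagl1* in the 9 segments of the P60 small intestine (x axis), as mean and SD of the samples, with segments 5 to 7 shaded. *Mcm6* exon 13 rises from 41.7 to 66.3% across the shaded part, and *Mcm6* intron 1 stays between 8.3 and 10.1% throughout.

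Samples of 1 segment that were high at a chosen region tended to be high at another, and no unchanged region was included for comparison. The relation was computed for 3 regions (*Mcm6* exon 13 with intron 13, *Lct* exon 1 and *Lct* intron 2) within each of the 3 segments, 9 relations in all. Between the *Mcm6* region and *Lct* exon 1, Pearson's r was 0.87 in segment 5 (n = 8, exact permutation p = 0.0050, Benjamini-Hochberg adjusted p = 0.012, Spearman's rho 0.86, adjusted p = 0.032). In segment 7 it was 0.86 (n = 8, exact permutation p = 0.0018, adjusted p = 0.012, rho 0.88, adjusted p = 0.032), and in segment 6 it was 0.85 (n = 7, exact permutation p = 0.018, adjusted p = 0.023, rho 0.64, adjusted p = 0.14). Without the 2 samples farthest from the median, r was 0.94, 0.64 and 0.67 in segments 5, 7 and 6. After subtraction of the lane means it was 0.97, 0.98 and 0.86.

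Between the *Mcm6* region and *Lct* intron 2, r was 0.84, 0.90 and 0.86 in segments 5, 6 and 7 (exact permutation, adjusted p = 0.015, 0.012 and 0.012, rho 0.86, 0.86 and 0.76 with adjusted p = 0.032, 0.054 and 0.066). Without the 2 farthest samples it was 0.70, 0.87 and 0.46. Between *Lct* exon 1 and intron 2, r was 0.76, 0.64 and 0.88 (exact permutation, adjusted p = 0.033, 0.13 and 0.012, rho 0.74, 0.71 and 0.62 with adjusted p = 0.069, 0.11 and 0.13). In segment 7 this fell to 0.23 without the 2 farthest samples, so that relation rests on them. The points share library and lane, and a difference between samples in the mix of cells was not tested.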

How the data were processed

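Bisulfite padlock sequencing of enterocyte DNA was analysed in 23 samples (8, 7 and 8 of segments 5, 6 and 7), and all 71 P60 samples entered the step comparison. The authors trimmed reads with Trimmomatic 0.32, mapped them with Bismark (version not given in the sources used here) to GRCm38/mm10, and deposited counts of modified and of unmodified reads for each cytosine and strand, not normalized. Reads amplified by PCR are not independent molecules, and intervals cover the spread between samples. In 70 of the P60 files the first line, a CpH row joined into 1 field, was dropped. Of 47909 listed cytosines, 47772 had the same 3 bases in GRCm38 and 137 differed only by masked bases. Exons and introns are those of *Lct*-201 and *Mcm6*-201 in GENCODE M21.

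Tests needed over 30 reads at a CpG in 3 or more samples per segment. A quasi-binomial model was fitted to the counts, segment as factor, 1 dispersion per CpG of at least 1, and F tests. The threshold of 0.01 after Bonferroni correction is the study's, but the correction here covered the 1526 CpGs of locus and other targets without CpHs, and Benjamini-Hochberg at 0.05 was an alternative. Features (at least 3 CpGs covered in all 23 samples) were compared by exact permutation of sample means, two-sided, over 12870 splits, and 95% intervals hold the shifts that this test does not reject. Steps between segments were fitted with limma 3.58.1 (R 4.3.3) on percentages. Probes were placed by their arm sequences, 604 of 604 at 1 site, and 35 tested CpGs fell on no placed probe of their strand. Lanes were read from the names of the deposited files. Alternatives were other read minimums and corrections, lane, replicate number, strands summed, pooled reads and, chosen after seeing the data, leaving out CpGs under a probe arm or the 3 deepest samples. The software was pandas 2.3.3, SciPy 1.17.1 and NumPy 2.4.6 under Python 3.11.15, with plots by Matplotlib 3.10.9, and the models were tested on simulated data.

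CpGs named were the 12 with the largest difference past Bonferroni correction, and the features were those with an adjusted p under 0.05 plus *Mcm6* exon 13, intron 13 and intron 1 and *Lct* exon 1 and intron 2. Members, lists and tests were chosen with earlier results of these data known. P6 and P90 samples were not used here.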

Additional observations from a re-analysis of the deposited data

Results flagged for a closer look

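Within segments, 1 sample stood apart from the others by Dixon's criterion in 11 of 93 groups of values, where chance flags about 1 in 20 groups. Of these, 3 were read depth (median reads per tested CpG): segment 5 replicate 5 at 3303, segment 6 replicate 6 at 3077 and segment 7 replicate 5 at 2640. Segment 6 replicate 6 also had the highest mean CpH modification of its segment, 0.431%.

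Segment 6 replicate 1 was low at *Lct* exon 1 (82.5%, the next sample at 87.2%), at *Lct* exon 1 CpG 128328060 (76.7%) and at *Mcm6* exon 13 CpG 128338156 (40.8%, the next at 57.1%). In segment 7, replicate 1 was low at *Lct* exon 1 (85.8%). The others were segment 5 replicate 1 at *Lct* exon 12 (86.03%), segment 5 replicate 7 at *Lct* exon 9 CpG 128298482 (63.2%) and segment 7 replicate 8 at *Mcm6* intron 1 (11.4%).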

How the results depend on the processing

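Differences at the 12 named CpGs were estimated anew only without the 3 deepest samples, where all 12 were still higher in segment 7 but 10 did not pass. Against 12 between segments 5 and 7, there were 36 with Benjamini-Hochberg adjustment, 3 when the Bonferroni correction also counted CpHs, 7 with lane as a covariate and 2 without the 3 deepest samples. At the other targets, 0 became 23 with Benjamini-Hochberg adjustment, 4 with segments 5 and 7 alone and 2 without the 3 deepest samples. Between segments 5 and 6, 0 locus CpGs became 1 with Benjamini-Hochberg adjustment and 1 with strands summed. For the steps, the 4 CpGs against the step from 3 to 5 became 1 on the log2 odds scale, and 0 against the step from 7 to 9 became 1 with segments 3, 5, 7 and 9 only.

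*Mcm6* upstream sequence was the least steady feature: 0.20 points with more than 10 reads, -0.71 with pooled reads (a reversal), 0.44 within lanes and 0.42 without the 3 deepest samples, and it did not pass in any of these. *Zdbf2* did not pass with more than 100 reads (0.66) or pooled reads (0.76), nor *Dlk1*–*Meg3* (0.65) or *Lct* intron 2 (3.06) with pooled reads. Without the 3 deepest samples 14 features passed, 12 of the 13 among them. The cause of these shifts was not tested.

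Samples share replicate numbers, but the labels do not say that a number marks a mouse. The serial numbers in most P60 titles also follow segment order in runs of 9, 1 sample per segment, and the labels do not explain them. Deviations of samples of segments 5 and 7 with the same replicate number correlated by -0.04 to 0.14, over 0.1 in 2 of 8 pairs. Each sample was set against the 8 of the other segment, and 7 of 16 matched their own number best. Over samples of different segments the mean correlation was 0.098 with the same number and -0.014 with different numbers. By the serial number in the titles these means were 0.112 and -0.016. Same-numbered samples were thus somewhat more alike. The numbers were still not taken as pairs, since the labels tie none to a mouse. The main tests and the step fit therefore treated all samples as independent, which they may not be. Single features did follow the replicate number in part: of 12 relations computed after values were seen, *Mcm6* exon 13 had r = 0.73 between segments 5 and 7 (n = 8, exact permutation, adjusted p = 0.092, r = 0.29 without the 2 farthest samples), 0.87 between 5 and 6 (adjusted p = 0.034, r = 0.82) and 0.87 between 6 and 7 (adjusted p = 0.035, r = 0.38), and *Lct* exon 1 had 0.94 between 6 and 7 (adjusted p = 0.034, r = 0.66). Whether same-numbered samples share a mouse cannot be told from these values. With the replicate number as a block, 23 locus CpGs passed between segments 5 and 7 (the 12 among them), 6 at the other targets and 3 locus CpGs between segments 6 and 7. Blocking by the serial number in the titles gave 14 locus CpGs between segments 5 and 7, 11 of the 12 among them (128298482 was lost, quasi-binomial adjusted p = 0.011), 5 at the other targets and 0 locus CpGs between segments 6 and 7, so the 3 calls there rest on which number is used. For features, the paired sign-flip test cannot give p below 0.0078 with 8 pairs, and its lowest adjusted p was 0.051, so 0 of 79 passed with either block, with 12 of the 13 at that lowest value. By construction, the paired differences equalled the unpaired ones: 24.59 points for *Mcm6* exon 13, 11.01 for intron 13, 8.01 for intron 3, 4.22 for intron 6 and 0.45 for the upstream sequence, 3.99, 2.499 and 1.58 for *Lct* exons 1, 9 and 12, 3.56 for *Lct* intron 2, 4.86 for *Plagl1*, -1.12 for *Peg13*, 1.35 for *Dlk1*–*Meg3* and 0.99 for *Zdbf2*.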
